A study of Homo sapiens with 24 samples.

Results

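The clustered protocadherins are cell-surface adhesion proteins encoded side by side in 3 gene clusters, PCDHA, PCDHB and PCDHG, on chromosome 5. The genes described here are the protein-coding rows of the counts table on that chromosome whose symbols carry the PCDHA, PCDHB or PCDHG stem with an isoform number or code, without pseudogenes. There were 53 such genes of 61551 in the table, namely 15 PCDHA, 16 PCDHB and 22 PCDHG genes. In the GENCODE annotation of GRCh38 they ran on the plus strand from position 140786136 to 141512977 of chromosome 5. The study edited HAR123, an element in an intron of SMG6 whose sequence changed on the human lineage, in the human embryonic stem cell line H9. It measured RNA by bulk sequencing before and after the cells were turned towards neuroectoderm. There were 24 libraries, 3 for each of 4 genotypes at each of 2 stages. The unedited line is called hHAR123 (WT in the labels), HAR123-KO lacks the element on both alleles, and cHAR123 and mHAR123 carry the chimpanzee or the mouse sequence in its place. All groups are H9 cells. ESC libraries come from untreated cells, and ECTO (neuroectoderm) libraries from cells kept for 5 days with Noggin, which blocks BMP signals, and SB431542, which blocks TGF-beta and activin receptors. Each genotype was represented by a pair of clones, and nothing says which library came from which clone or culture. P-values therefore measure only the spread between these libraries, and a difference between clones and an effect of the edit cannot be told apart.

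As background, clustered protocadherins sit in the plasma membrane as dimers that bind identical dimers on a neighbouring cell. Single neurons express different small sets of them, which lets a neuron tell its own branches from those of other neurons and supports dendrite spacing, axon tiling and neuron survival. Each isoform has its own promoter. In PCDHA and PCDHG, a variable exon that encodes the outer domains is joined to constant exons shared by the whole cluster, whereas each PCDHB gene is one coding exon with no constant part. CTCF and cohesin bring a distant enhancer to a chosen promoter, and DNA methylation silences the others. The C-type isoforms (PCDHAC1, PCDHAC2, PCDHGC3, PCDHGC4 and PCDHGC5) lie at the ends of their clusters and are less subject to random choice.

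Total counts ran from 21022748 to 35198684 per library, and the members took between 0.034% and 0.0397% of them in ESC and between 0.0776% and 0.0861% in ECTO. Levels in CPM are counts scaled to the total of the library in the usual way. The constant exons belong to every PCDHA or every PCDHG gene, and reads there may have been left out of the counts or assigned to several genes, so the accounts rest on PCDHB first. PCDHB genes shared no exon base with another member, whereas each PCDHA gene shared bases with 14 others and each PCDHG gene with 21. Antisense or other annotated genes lie over part of 23 members, among them PCDHB2, of whose exon bases 56.2% were free of any other gene. Whether counting used strand is not stated. Among 52 members with enough unshared sequence, 34 had some 100-base windows that occur again within the cluster region, up to 25.5% of the windows in PCDHB8.

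POU5F1 and PAX6 followed the labelled stage. By the thresholds given below, 6 of 8 pluripotency markers were down-regulated in ECTO in each genotype, beside 19.1% to 21.2% of all genes. SOX2, on that list but also expressed in neuroectoderm, was up-regulated except in HAR123-KO. Of the neuroectoderm markers, 8 of 8 were up-regulated in hHAR123, cHAR123 and mHAR123 and 6 of 7 tested in HAR123-KO, beside 21.3% to 24.6%. The other 1 was lower there past the adjusted p threshold. POU5F1, a core pluripotency factor, was between 1052 and 1150.2 CPM in the 12 ESC libraries and between 10.1 and 15.98 CPM in the 12 ECTO libraries. PAX6, a neuroectoderm factor, was between 0.034006 and 0.526 CPM in ESC and between 224 and 497 CPM in ECTO. The summed level of 8 neural crest markers was 119 to 126 CPM in hHAR123 ECTO, 1758 to 1769 in HAR123-KO ECTO, 282 to 294 in cHAR123 ECTO and 324 to 332 in mHAR123 ECTO. The summed level of 8 neuroectoderm markers was 3510.1 to 3554 CPM in hHAR123 ECTO and 1669.8 to 1700.4 CPM in HAR123-KO ECTO, 3379 to 3412 in cHAR123 ECTO and 3249 to 3294 in mHAR123 ECTO. The ECTO cultures thus differed in cell identity markers between genotypes, and in bulk RNA a larger share of cells of one type and more RNA per cell cannot be told apart. Because the edited element is intronic, exon counts do not check the deletion. For ECTO, the study's own table of changed genes and the column labels give opposite names to the libraries of cHAR123 and mHAR123, and the values below follow the column labels.

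The promoters of the family share a short element. The stretches around it are shown for some of the members that the results turn on in each cluster. PCDHA7 is shown as a further holder of the PCDHA form. RefSeq promoter windows on GRCh38.p14, running from 250 bases before to 50 bases after each gene's start, were found for 47 of the 53 members. The tetramer CGCT, searched on both strands, was present in 46 of the 47, all but PCDHA9, and in 70.0% of all 35116 promoters of that length. Longer forms differed between the clusters. GATGTCGCT was in 9 of 13 PCDHA promoters, in no PCDHB or PCDHG promoter and in 0.105% of all promoters. GGTGGCGCT was in 13 of 14 PCDHB promoters, in none of the other clusters and in 0.501% of all promoters. GNGNCGCTG, which overlaps the PCDHB form, was in 18 of 20 PCDHG and 12 of 14 PCDHB promoters and in 10.2% of all. The PCDHG promoters without it were those of PCDHGB3 and PCDHGB7. PCDHGB7 and PCDHA9 are not among the lines shown. The lines below give 56 bases of each promoter on the plus strand with that CGCT in capitals.
PCDHA7: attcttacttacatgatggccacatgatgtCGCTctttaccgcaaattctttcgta
PCDHA11: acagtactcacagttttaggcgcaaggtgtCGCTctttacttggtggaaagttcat
PCDHA12: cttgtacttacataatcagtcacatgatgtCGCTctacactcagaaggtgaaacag
PCDHB2: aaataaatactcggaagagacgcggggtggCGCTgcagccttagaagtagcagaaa
PCDHB5: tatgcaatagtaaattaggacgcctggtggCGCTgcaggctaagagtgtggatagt
PCDHB10: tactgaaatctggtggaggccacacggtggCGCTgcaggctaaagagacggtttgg
PCDHB16: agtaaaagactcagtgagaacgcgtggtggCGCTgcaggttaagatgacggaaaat
PCDHGB4: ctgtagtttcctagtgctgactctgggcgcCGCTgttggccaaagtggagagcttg
PCDHGB6: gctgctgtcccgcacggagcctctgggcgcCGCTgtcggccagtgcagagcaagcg
PCDHGA11: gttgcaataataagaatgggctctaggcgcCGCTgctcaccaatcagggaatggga
PCDHGC3: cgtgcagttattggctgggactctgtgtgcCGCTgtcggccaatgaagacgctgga
PCDHGC4: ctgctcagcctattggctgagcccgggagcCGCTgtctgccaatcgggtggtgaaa

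In this order, the lines cover chr5:140834158-140834213, chr5:140868869-140868924 and chr5:140875230-140875285, then chr5:141094530-141094585, chr5:141135165-141135220, chr5:141192285-141192340 and chr5:141182296-141182351, then chr5:141387603-141387658, chr5:141407910-141407965, chr5:141420958-141421013, chr5:141475866-141475921 and chr5:141484938-141484993. The 4 PCDHB lines all hold GGTGGCGCT. PCDHA7 and PCDHA12 hold GATGTCGCT, and PCDHA11 does not. A match of letters is a description of these windows, and the data hold no measurement of binding or methylation there.

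The first question was which members these cells expressed. Levels between genes were compared as CPM per kb of exon that no other gene covers, over 52 members, since PCDHA1 has only 7 such bases. In hHAR123 ESC, PCDHB2 was highest at 16.4 ± 0.239 CPM per kb (SD, n = 3). PCDHB5 followed at 7.65 ± 0.244, PCDHA12 at 6.97 ± 0.831 and PCDHGB7 at 6.22 ± 0.366 (SD, n = 3 each). The libraries of PCDHB2 lay above those of every other member, whereas PCDHB5 and PCDHA12 overlapped, as did PCDHA12 and PCDHGB7. PCDHGC3, a C-type isoform, came after these at 4.74 ± 0.413 (SD, n = 3). At the other end, PCDHB7, PCDHGA1, PCDHGA2 and PCDHGA3 were between 0.215 and 0.319 CPM per kb, and PCDHB1 had 0 to 14 counts in any of the 24 libraries and was tested in no comparison. Which isoforms a single cell used cannot be seen in these sums over a culture.

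In hHAR123 ECTO the order of the leading members shifted. PCDHB2 was again highest at 29.5 ± 1.37 CPM per kb (SD, n = 3), and PCDHGB7 came next at 22.8 ± 0.3997 (SD, n = 3). PCDHB2 has 2301 bases that no other gene covers but 4098 free of any gene on its own strand, whereas PCDHGB7 has 2785 on either basis. If counting used strand, the smaller figure would overstate the level of PCDHB2. Its place above PCDHGB7 in ECTO thus depends on a setting that is not stated. PCDHB5 was at 14.5 ± 0.635, PCDHGC3 at 12.9 ± 1.02 and PCDHGB6 at 10.9 ± 0.143 (SD, n = 3 each). PCDHB5 and PCDHGC3 overlapped between libraries, and each of PCDHB2, PCDHGB7, PCDHGC3 and PCDHGB6 lay above the next member in every library. PCDHA12, among the 3 highest in ESC by unshared length, ranked 12 in ECTO at 5.39 ± 0.538 (SD, n = 3). PCDHA12 has 2011 bases that no other gene covers but 2588 free of any gene on its own strand. For PCDHB5 these are 2909 and 3410. The place of PCDHA12 above PCDHGB7 in ESC, and that of PCDHB5 above PCDHGC3 in ECTO, thus also depend on whether counting used strand. PCDHB genes made up 39.4 ± 0.574% of the summed level per kb in hHAR123 ESC and 39.3 ± 0.769% in hHAR123 ECTO (SD, n = 3 each). The PCDHA share was 25.8 ± 1.18% and 21.9 ± 0.533%, and the PCDHG share 34.7 ± 0.683% and 38.8 ± 1.197%, in the same order. The PCDHG share was higher in ECTO than in ESC in all libraries, and the PCDHA share lower. With total exon length in place of unshared length, PCDHB made up 48.6% and 48.5%.

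**Figure D1:**
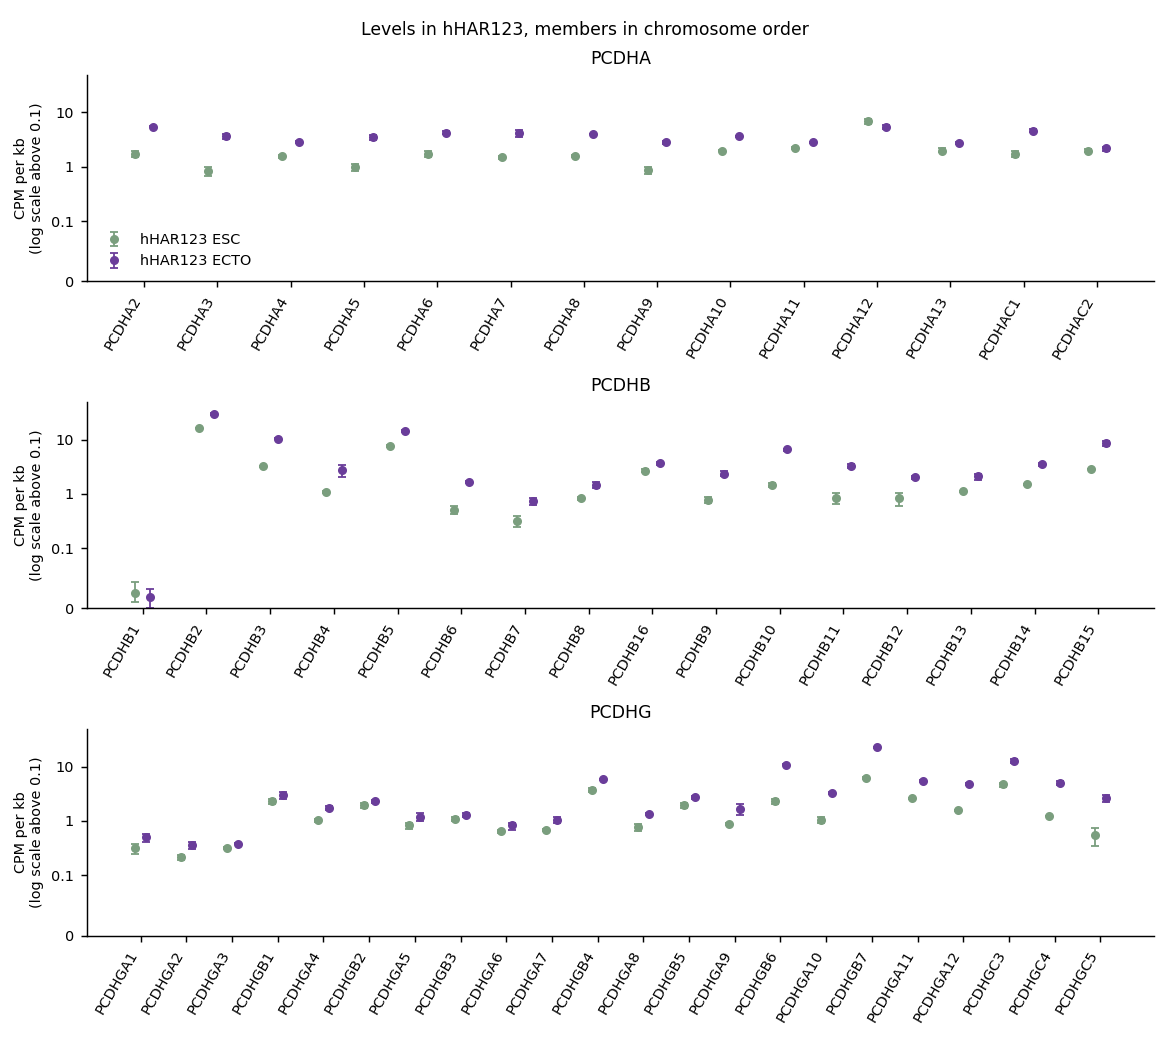
Level of each member with a defined unshared length, in CPM per kb of unshared exon on an axis that is logarithmic above 0.1, in hHAR123 ESC (green) and hHAR123 ECTO (purple), with members in chromosome order within each cluster. Points are means of 3 libraries and bars run from the lowest to the highest library. PCDHB2 is highest at both stages by unshared length, PCDHB1 lies near 0, and the later PCDHG genes are further apart between stages than the earlier ones. The place of PCDHB2 above PCDHGB7 in ECTO depends on whether counting used strand, which is not stated.

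The next comparison asked how the members changed as ESC became neuroectoderm, within each genotype. Summed over a cluster, every ECTO library was above every ESC library. PCDHB genes together went from 123 ± 2.82 to 283 ± 10.4 CPM in hHAR123 (SD, n = 3 each), a ratio of 2.301. PCDHA genes went from 105 ± 3.74 to 211 ± 4.64 CPM, a ratio of 2.01. PCDHG genes went from 115 ± 2.95 to 294 ± 7.14 CPM, a ratio of 2.57. These levels are scaled to library totals, whereas the fitted fold changes below use TMM scaling (which aligns the bulk of genes between libraries), and the scales differ between stages. The log2 ratio of CPM exceeded the fitted log2 fold change by a median of 0.29 over members in hHAR123, 0.20 in HAR123-KO, 0.21 in cHAR123 and 0.17 in mHAR123. On the TMM scale the hHAR123 ratios come to 1.88 for PCDHB, 1.64 for PCDHA and 2.099 for PCDHG. The direction differed between the scales for 4, 4, 4 and 0 members in the same order of genotypes, PCDHAC2 among them in the first 3, and for none that passed the adjusted p threshold. Over all members the CPM ratio was 2.300 in hHAR123, 2.26 in HAR123-KO, 2.12 in cHAR123 and 2.27 in mHAR123. Along with this, the summed level of 8 neuron markers was 93.6 to 98.98 CPM in hHAR123 ESC and 439 to 455 CPM in hHAR123 ECTO. By the thresholds given below, 5 of the 8 were up-regulated, beside 24.6% of all genes. The neuron marker RBFOX3 was down-regulated, with a log2 fold change of −3.25, beside 21.2% of all genes. The part of these markers in the result was not tested.

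**Figure D2:**
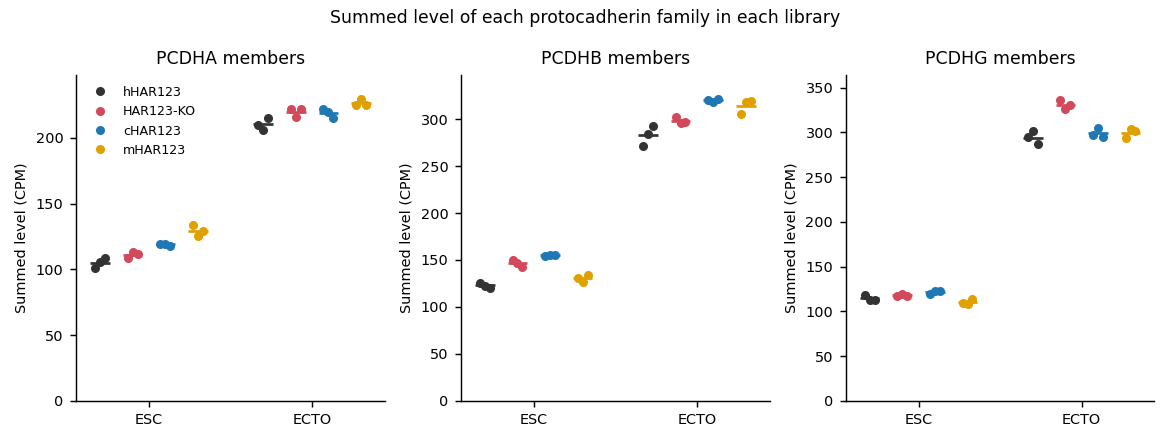
Summed level in CPM of the 15 PCDHA, 16 PCDHB and 22 PCDHG genes in each library (points), with a line at the mean of 3 libraries, by genotype and stage. In each cluster all 12 ECTO libraries lie above all 12 ESC libraries.

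In hHAR123, 22 of 51 members tested were up-regulated in ECTO and none down-regulated (adjusted p under 0.01 and absolute log2 fold change over 1, quasi-likelihood test of edgeR, p-values adjusted by Benjamini-Hochberg). That is 43.1% of members higher, where 24.6% of all genes tested were called higher and 21.2% lower. The median log2 fold change was 0.77 over members and 0.05 over all genes. In HAR123-KO, 24 were up-regulated, beside 22.0% of all genes, and 1 down-regulated, beside 19.1%. That 1 was PCDHA1, with 0 to 20 counts per library and an antisense gene over most of its exons. In cHAR123, 19 were up-regulated, beside 21.9% of all genes, and in mHAR123 26, beside 21.3%, with none down-regulated in either, beside 20.8% and 20.7%. DESeq2 called none down-regulated in any genotype, and with edgeR 1, 2, 1 and 3 members were lower at an unadjusted p under 0.05 in hHAR123, HAR123-KO, cHAR123 and mHAR123. The 4 comparisons share no library, and 17 members were called up-regulated in all 4 genotypes and 24 in none. That is 33.3% of the 51 members tested in all 4, beside 15.1% of all genes tested in all 4. At any fold, 36 members rose and 1 fell in hHAR123, beside 40.3% and 39.7% of all genes. The counts were 39 and 2 in HAR123-KO, beside 39.8% and 39.4%, 35 and 1 in cHAR123, beside 39.5% and 39.4%, and 40 and 2 in mHAR123, beside 39.1% and 39.5%.

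The PCDHB genes share no exon base with another member. Of 15 tested, 8 were up-regulated in hHAR123, 8 in HAR123-KO, 6 in cHAR123 and 11 in mHAR123, and none was down-regulated. Over all genes, 24.6%, 22.0%, 21.9% and 21.3% were called higher in that order, and 21.2%, 19.1%, 20.8% and 20.7% lower. All 15 had a positive log2 fold change in each genotype. PCDHB3, PCDHB6, PCDHB10, PCDHB11 and PCDHB15 were up-regulated in all 4 genotypes. PCDHB10 was at 4.798, 4.396 and 5.09 CPM in the 3 hHAR123 ESC libraries and at 20.5, 21.8 and 21.9 CPM in ECTO. Its log2 fold change of 1.87 (SE 0.0848, adjusted p = 2.64e-22) was the largest of the PCDHB genes in hHAR123 (same test). The groups were far apart, and the change ran from 1.55 to 2.002 over the 4 genotypes.

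PCDHB11 was at 4.198, 3.403 and 2.61 CPM in hHAR123 ESC and 11.9, 14.1 and 12.9 CPM in ECTO, with a log2 fold change of 1.65 (SE 0.116, adjusted p = 4.14e-16). PCDHB6 was lower at both stages, at 1.89, 1.32 and 1.59 CPM in ESC and 5.28, 4.96 and 5.42 CPM in ECTO, with 1.41 (SE 0.152, adjusted p = 7.22e-11) (edgeR's quasi-likelihood test for both). Neither gene overlapped between stages. Over the 4 genotypes the log2 fold change was 1.53 to 2.16 for PCDHB11 and 1.41 to 1.95 for PCDHB6. PCDHB3 had group means of 9.49 to 11.1 CPM in ESC and 27.6 to 31.2 CPM in ECTO over the 4 genotypes, and a log2 fold change of 1.13 to 1.44. PCDHB15 had group means of 10.3 to 12.5 and 31.7 to 35.1 CPM and a log2 fold change of 1.28 to 1.46. These are the PCDHB genes whose rise passed both thresholds whatever the genotype.

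The other PCDHB genes passed the fold threshold in some genotypes or in none. PCDHB2, the member with the highest level per kb of unshared exon, went from 38.3, 37.4 and 37.3 CPM in hHAR123 ESC to 68.9, 64.4 and 70.5 CPM in ECTO. Its log2 fold change was 0.56 (SE 0.0458, adjusted p = 3.69e-14) in edgeR's quasi-likelihood test. Its change was 0.46 to 0.75 over the 4 genotypes, so it rose in each without reaching the fold threshold. PCDHB5 likewise changed by 0.56 to 0.80, with group means of 22.2 to 39.2 CPM in ESC and 42.2 to 70.5 CPM in ECTO. PCDHB4 changed by 0.99 to 1.31, PCDHB9 by 0.78 to 1.40, PCDHB12 by 0.71 to 1.16, PCDHB13 by 0.64 to 1.03 and PCDHB14 by 0.82 to 1.31. In the order named, their group means lay at 3.72, 2.78, 3.203, 4.799 and 4.91 CPM at their lowest in ESC and 11.00, 10.3, 8.39, 11.6 and 14.99 CPM at their highest in ECTO. The low genes PCDHB7 and PCDHB8 had group means of 0.956 to 1.56 and 1.75 to 2.71 CPM in ESC and of 2.59 to 3.21 and 3.71 to 4.09 CPM in ECTO, with log2 fold changes of 0.58 to 1.59 and 0.40 to 1.01, and PCDHB8 did not pass the adjusted p threshold in cHAR123. PCDHB16 moved least, with a log2 fold change of 0.01 to 0.50, group means of 4.73 to 10.2 CPM in ESC and 7.499 to 11.8 CPM in ECTO, and an adjusted p under the threshold only in mHAR123 (4.28e-05, against 0.0532 to 0.888 in the others, edgeR's quasi-likelihood test).

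**Figure D3:**
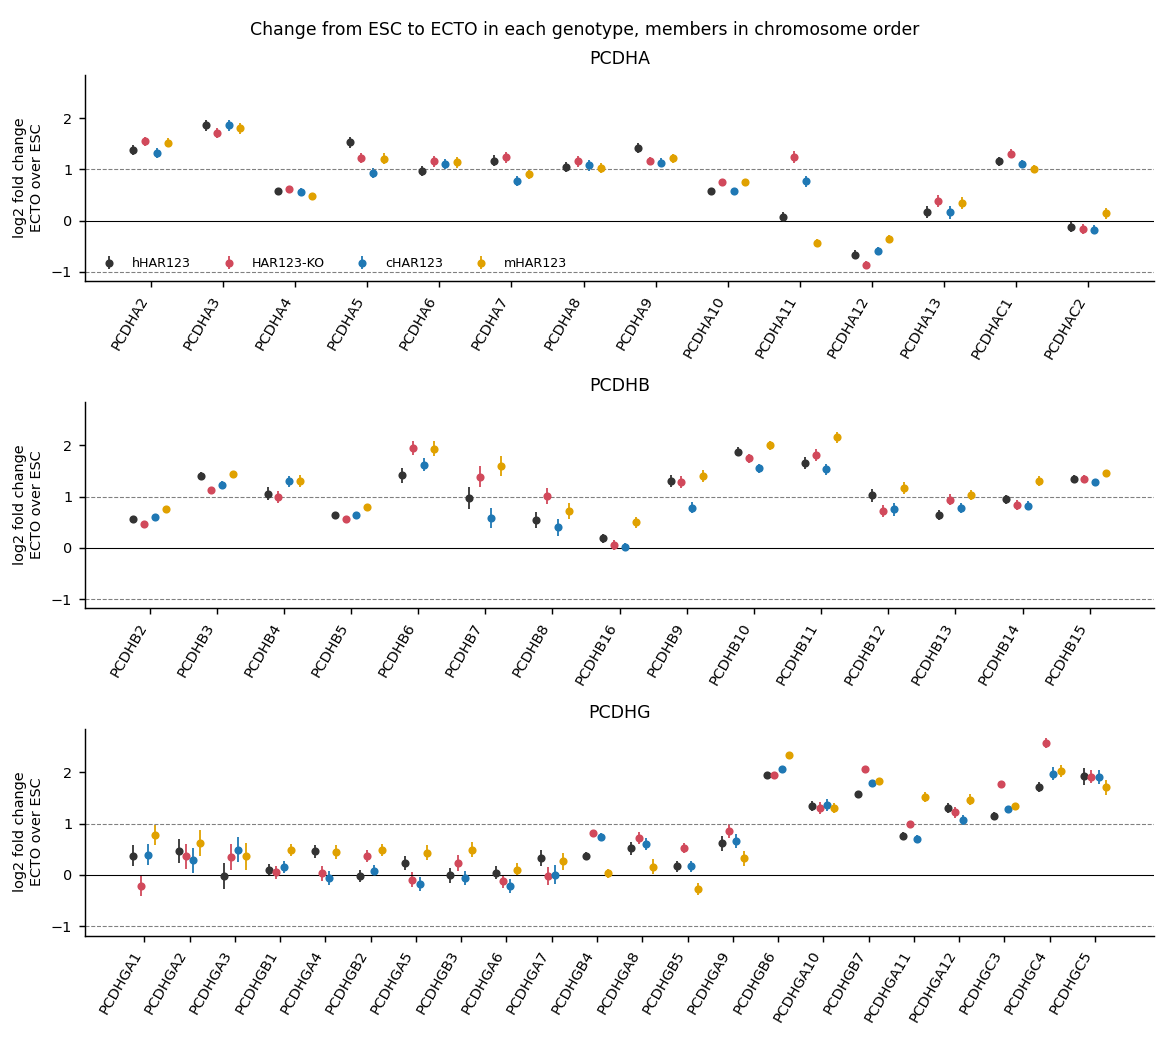
Log2 fold change of ECTO over ESC for each of the 51 members tested in all comparisons, by genotype (color), with members in chromosome order within each cluster. Bars are 1 standard error of the edgeR fit, the solid line is no change and dashed lines mark the fold threshold. All PCDHB points lie above 0, PCDHA12 lies below 0 in each genotype, and PCDHA11 is spread from below 0 in mHAR123 to above 1 in HAR123-KO.

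Among PCDHA genes, 7 of 14 tested were up-regulated in hHAR123 ECTO, beside 24.6% of all genes. The 3 largest changes were those of PCDHA3, PCDHA5 and PCDHA9. PCDHA3 went from 2.43, 3.55 and 2.93 CPM to 11.8, 14.3 and 13.5 CPM in hHAR123, with a log2 fold change of 1.86 (SE 0.114, adjusted p = 4.65e-18). PCDHA5 changed by 1.53 (SE 0.109, adjusted p = 5.65e-16) and PCDHA9 by 1.42 (SE 0.0918, adjusted p = 2.70e-17) (edgeR's quasi-likelihood test). PCDHA2, PCDHA3, PCDHA8, PCDHA9 and PCDHAC1 were up-regulated in all 4 genotypes. The 3 largest PCDHA changes by log2 fold change were PCDHA3 (1.71), PCDHA2 (1.55) and PCDHAC1 (1.31) in HAR123-KO, PCDHA3 (1.86), PCDHA2 (1.32) and PCDHA9 (1.14) in cHAR123 and PCDHA3 (1.80), PCDHA2 (1.53) and PCDHA9 (1.22) in mHAR123. PCDHA12 went the other way. It was at 14.3, 12.2 and 15.5 CPM in hHAR123 ESC and at 10.8, 9.79 and 11.96 CPM in ECTO, and its log2 fold change was −0.66 (SE 0.0876, adjusted p = 9.39e-09), −0.85 in HAR123-KO, −0.60 in cHAR123 and −0.35 in mHAR123. In each genotype its fall passed the adjusted p threshold but not the fold threshold, and PCDHA12 was the only member of which this is true in all 4.

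Of the C-type PCDHA isoforms, PCDHAC1 was up-regulated and PCDHAC2 was not. PCDHAC1 was at 6.44, 6.38 and 8.13 CPM in hHAR123 ESC and at 20.6, 17.9 and 19.05 CPM in ECTO, a log2 fold change of 1.16 (SE 0.0863, adjusted p = 2.21e-15). PCDHAC2 was at 6.12, 6.84 and 6.11 CPM in ESC and at 6.42, 7.27 and 7.64 CPM in ECTO, a log2 fold change of −0.12 (SE 0.103, adjusted p = 0.255), lower on the fitted scale and higher in CPM, and it missed the threshold in all 4 genotypes (edgeR's quasi-likelihood test). PCDHAC2 libraries overlapped between stages and PCDHAC1 libraries did not. The difference between the 2 isoforms was not tested.

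Among PCDHG genes, 7 of 22 tested were up-regulated in hHAR123 ECTO, which is 31.8%, beside 24.6% of all genes. These 7 lay towards the end of the cluster. The first 11 genes on the chromosome, PCDHGA1 to PCDHGB4, changed by a log2 fold change of −0.02 to 0.47 in hHAR123, with a median of 0.23 and none called. The 11 from PCDHGA8 on changed by 0.17 to 1.96, with a median of 1.31 and 7 called. This boundary was chosen after the values were seen, so it is a description. With the same boundary, none of the first 11 was called in the other genotypes. Of the last 11, 7 were called in HAR123-KO, 7 in cHAR123 and 8 in mHAR123, beside 22.0%, 21.9% and 21.3% of all genes called higher. At any fold, 2, 1 and 6 of the first 11 passed the adjusted p threshold in that order, and 2 in hHAR123. The medians of the first and last 11 were 0.05 and 1.31 in HAR123-KO, 0.09 and 1.29 in cHAR123, and 0.45 and 1.47 in mHAR123. Across the 22 PCDHG genes, Spearman's rho between order on the chromosome and log2 fold change was 0.75 in hHAR123, 0.84 in HAR123-KO, 0.73 in cHAR123 and 0.49 in mHAR123. Across the 14 PCDHA genes it was −0.67 in hHAR123, −0.20 in HAR123-KO (15 genes), −0.60 in cHAR123 and −0.69 in mHAR123, and across the 15 PCDHB genes 0.15, 0.14, 0.16 and 0.17 in that order. Without the C-type genes the PCDHG values were 0.66, 0.79, 0.63 and 0.26. Neighbouring genes share libraries, constant exons and base composition, so these are descriptions over genes with no test. ESC levels differed along the cluster as well, with a median of 2.79 CPM in the first 11 and 4.69 CPM in the last 11 in hHAR123.

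PCDHGB6 showed the largest change of the cluster in hHAR123. It was at 11.7, 10.5 and 9.63 CPM in ESC and at 50.99, 49.7 and 50.1 CPM in ECTO, a log2 fold change of 1.96 (SE 0.0629, adjusted p = 2.71e-27) in edgeR's quasi-likelihood test. The 3 largest PCDHG changes in the edited lines were PCDHGC4 (2.57), PCDHGB7 (2.07) and PCDHGB6 (1.94) in HAR123-KO, PCDHGB6 (2.06), PCDHGC4 (1.98) and PCDHGC5 (1.92) in cHAR123 and PCDHGB6 (2.34), PCDHGC4 (2.03) and PCDHGB7 (1.84) in mHAR123. PCDHGC5 and PCDHGC4, the last genes of the cluster, came next in hHAR123. PCDHGC5 was at 1.704, 0.994 and 2.102 CPM in ESC and 7.56, 8.43 and 6.41 CPM in ECTO, a log2 fold change of 1.92 (SE 0.161, adjusted p = 7.51e-14). PCDHGC4, which supports the survival of neurons in mice, was at 3.47, 3.403 and 3.44 CPM in ESC and 13.03, 15.3 and 13.02 CPM in ECTO, with 1.72 (SE 0.102, adjusted p = 2.07e-18) in the same test. PCDHGC3 was already among the higher members in ESC, at 16.4, 16.02 and 13.9 CPM, and reached 38.8, 45.4 and 41.9 CPM in ECTO, a log2 fold change of 1.16 (SE 0.0659, adjusted p = 4.97e-19) in the same test. All C-type PCDHG isoforms were up-regulated in all 4 genotypes, by 1.16 to 1.77 for PCDHGC3, 1.72 to 2.57 for PCDHGC4 and 1.71 to 1.92 for PCDHGC5, with no overlap between ESC and ECTO libraries in hHAR123.

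Genotypes were then compared within ESC, with the neural crest list summing to 107 to 112 CPM in hHAR123 and 119 to 119.7, 110.1 to 121 and 103 to 107 CPM in HAR123-KO, cHAR123 and mHAR123. Most members were close between genotypes. Over 52 members the highest genotype mean was a median of 1.28 times the lowest, and 3 members exceeded a ratio of 2, led by PCDHA11 with 7.10. In HAR123-KO, 1 of 52 members tested, PCDHA11, was down-regulated and none up-regulated, beside 0.221% of all genes called lower and 0.96% higher. In cHAR123 no member was called in either direction, beside 0.626% of all genes higher and 0.225% lower. In that comparison, edgeR gave 21 members with an unadjusted p under 0.05, and DESeq2 also called none. In mHAR123, PCDHA11 was up-regulated, beside 1.03% of all genes, and PCDHGA11 down-regulated, beside 0.199%. Between mHAR123 and cHAR123, PCDHA11 was higher in mHAR123, beside 0.0716% of all genes, and PCDHGA11 and PCDHB16 were lower, beside 0.0859%.

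PCDHA11 had the largest ratio of the highest to the lowest genotype mean of any member in ESC. In ESC it was at 7.102, 7.17 and 7.81 CPM in hHAR123, 2.91, 3.57 and 2.73 in HAR123-KO, 3.91, 4.61 and 4.31 in cHAR123 and 23.1, 21.04 and 21.2 in mHAR123. No groups overlapped, and the mHAR123 libraries stood above all others. Relative to hHAR123 the log2 fold change was −1.28 (SE 0.113, adjusted p = 4.87e-12) in HAR123-KO, −0.81 (SE 0.103, adjusted p = 1.02e-07) in cHAR123 and 1.53 (SE 0.0709, adjusted p = 2.47e-22) in mHAR123 (edgeR's quasi-likelihood test). Its unshared exon sequence of 3360 bases had no 100-base window that recurs in the cluster region, and no other annotated gene outside the cluster lies over its exons. In ECTO it was at 9.32, 9.63 and 9.48 CPM in hHAR123, 8.31, 8.28 and 8.42 in HAR123-KO, 8.76, 8.37 and 8.07 in cHAR123 and 18.9, 17.7 and 18.1 in mHAR123. The libraries labelled mHAR123 were again highest, while those of the other genotypes lay between 8.07 and 9.63 CPM. The log2 fold change of mHAR123 over hHAR123 in ECTO was 0.99 (SE 0.0792, adjusted p = 1.17e-12), just short of the fold threshold, and that of mHAR123 over cHAR123 was 1.14 (SE 0.0789, adjusted p = 7.63e-16) (same test).

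PCDHGA11 showed the reverse order. In ESC it was at 9.78, 9.24 and 9.66 CPM in hHAR123, 13.3, 14.7 and 12.1 in HAR123-KO, 12.02, 11.9 and 11.1 in cHAR123 and 4.15, 4.95 and 3.93 in mHAR123. In ECTO it was at 20.3, 20.4 and 19.05 CPM in hHAR123, 29.8, 32.1 and 29.1 in HAR123-KO, 22.01, 21.9 and 21.9 in cHAR123 and 13.1, 14.9 and 14.1 in mHAR123. The mHAR123 libraries were lowest at both stages, below every library of the other genotypes. The log2 fold change of mHAR123 over hHAR123 was −1.18 (SE 0.0972, adjusted p = 1.47e-13) in ESC and −0.46 (SE 0.0739, adjusted p = 8.91e-06) in ECTO (edgeR's quasi-likelihood test). HAR123-KO was above hHAR123, by 0.46 (SE 0.07698, adjusted p = 1.32e-05) in ESC and 0.66 (SE 0.0628, adjusted p = 5.18e-13) in ECTO (same test).

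Of the PCDHB genes, PCDHB16 was called between genotypes and PCDHB5 separated hHAR123 from all edited lines in ESC. PCDHB16 in ESC was at 7.42, 7.17 and 8.13 CPM in hHAR123, 6.99, 6.87 and 7.06 in HAR123-KO, 9.84, 10.1 and 10.6 in cHAR123 and 4.52, 4.53 and 5.12 in mHAR123. It was lower in mHAR123 than in cHAR123 by a log2 fold change of −1.12 (SE 0.0956, adjusted p = 8.52e-13), and −0.72 (SE 0.0993, adjusted p = 1.34e-07) relative to hHAR123 (edgeR's quasi-likelihood test). In ECTO it was 7.31 to 7.74 CPM in mHAR123 and 9.75 to 11.1 CPM in hHAR123, again without overlap. The mHAR123 libraries were lowest at both stages. PCDHB5 was at 22.98, 22.2 and 21.6 CPM in hHAR123 ESC, 38.2, 40.1 and 39.2 in HAR123-KO, 40.6, 39.4 and 37.7 in cHAR123 and 32.6, 31.7 and 32.3 in mHAR123. Relative to hHAR123 its log2 fold change in ESC was 0.80 (SE 0.0498, adjusted p = 1.41e-16), 0.79 (SE 0.0505, adjusted p = 1.81e-15) and 0.49 (SE 0.0506, adjusted p = 9.85e-11) in that order (same test). These 3 comparisons share the hHAR123 libraries, and none reached the fold threshold. PCDHB9 in ESC was at 3.54, 2.800 and 3.097 CPM in hHAR123, 3.21, 2.72 and 2.97 in HAR123-KO, 4.395, 5.46 and 5.64 in cHAR123 and 2.87, 2.81 and 2.67 in mHAR123. The cHAR123 libraries stood above all others, with a log2 fold change of 0.69 (SE 0.126, adjusted p = 5.72e-05) over hHAR123, and mHAR123 was at −0.91 (SE 0.129, adjusted p = 2.89e-06) relative to cHAR123 (same test), both short of the fold threshold.

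At any fold, 10 members passed the adjusted p threshold in HAR123-KO ESC, 6 higher and 4 lower, beside 7.06% and 5.29% of all genes. The counts were 5 higher and 1 lower in cHAR123, beside 7.72% and 8.6%, and 4 higher and 3 lower in mHAR123, beside 9.02% and 10.2%. Both directions together, 19.2% of members passed in HAR123-KO, 11.5% in cHAR123 and 13.5% in mHAR123, against 12.4%, 16.3% and 19.2% of all genes. Between mHAR123 and cHAR123, 2 were higher and 5 lower, beside 0.434% and 0.348% of all genes. The 7 were PCDHA10, PCDHA11, PCDHAC1, PCDHB5, PCDHB9, PCDHB16 and PCDHGA11. PCDHAC1 was at 10.9, 10.04 and 9.74 CPM in mHAR123 ESC, a log2 fold change of 0.51 (SE 0.0897, adjusted p = 1.74e-05) over hHAR123 (edgeR's quasi-likelihood test). PCDHAC2, PCDHGC3, PCDHGC4 and PCDHGC5 did not pass in any genotype comparison in ESC.

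**Figure D4:**
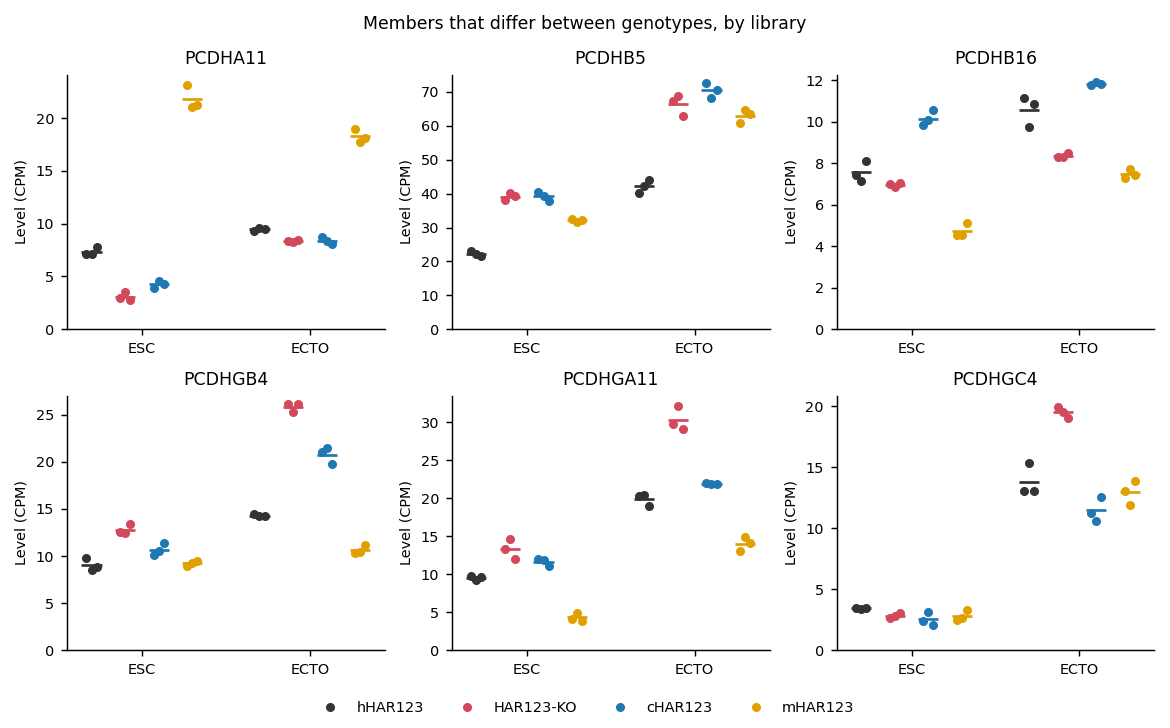
Level in CPM of 6 members in each library (points) with a line at the mean of 3 libraries, by genotype and stage. PCDHA11 is highest and PCDHGA11 and PCDHB16 are lowest in mHAR123 at both stages, PCDHB5 is lowest in hHAR123 at both stages, and PCDHGB4 and PCDHGC4 are highest in HAR123-KO ECTO.

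In ECTO no member was called in HAR123-KO, cHAR123 or mHAR123 relative to hHAR123. All genes were called higher and lower in 4.92% and 4.52% of tests in HAR123-KO, 0.522% and 0.456% in cHAR123, and 0.603% and 0.429% in mHAR123. With edgeR, 23, 19 and 25 of 51 members had an unadjusted p under 0.05 in that order, and DESeq2 also called none in these comparisons. Between the libraries labelled mHAR123 and cHAR123, PCDHA11 was higher in mHAR123, beside 0.104% of all genes, and none was lower, beside 0.156%. In HAR123-KO the median absolute log2 fold change was 0.18 over members and 0.27 over all genes, so members were nearer to 0 than genes at large there. In the other genotype comparisons with hHAR123 members were farther from 0, with 0.15 over members and 0.12 over all genes in cHAR123 ECTO and 0.20 and 0.14 in mHAR123 ECTO. In ESC the values were 0.16 and 0.11, 0.20 and 0.13 and 0.17 and 0.14 in HAR123-KO, cHAR123 and mHAR123. Among the PCDHG genes alone the median in HAR123-KO ECTO was 0.37. That same comparison held 1758 to 1769 CPM of neural crest markers, all 8 of them up-regulated, and 5 of 8 neuroectoderm markers down-regulated, and in the libraries labelled cHAR123 and mHAR123 7 of the 8 neural crest markers were up-regulated as well. The part of such cells in the member values was not tested.

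At any fold, 11 members were higher and 4 lower in HAR123-KO ECTO, beside 24.2% and 19.9% of all genes. Of the 11, 8 were PCDHG genes. PCDHGB4 was at 14.5, 14.2 and 14.2 CPM in hHAR123, 26.1, 25.3 and 26.1 in HAR123-KO, 21.01, 21.5 and 19.7 in the libraries labelled cHAR123 and 10.3, 10.5 and 11.2 in those labelled mHAR123. All 4 groups were apart, and the log2 fold change over hHAR123 was 0.91 (SE 0.0677, adjusted p = 1.18e-16), 0.55 (SE 0.0705, adjusted p = 9.77e-08) and −0.39 (SE 0.0816, adjusted p = 4.63e-04) in that order (edgeR's quasi-likelihood test). The 3 genes that follow it on the chromosome, PCDHGA8, PCDHGB5 and PCDHGA9, differed by log2 fold changes of 0.58, 0.53 and 0.45 in HAR123-KO, each past the adjusted p threshold. PCDHGA9 overlapped between these groups, and leaving out 1 library took its adjusted p as high as 0.08404 (same test). Between mHAR123 and cHAR123 ECTO, PCDHGB4, PCDHGA8 and PCDHGB5 were lower, with log2 fold changes of −0.94, −0.68 and −0.46. PCDHGB4 and PCDHGB5 have 16.7% and 15.1% of their 100-base windows repeated in the cluster region, so reads between them could be left out or shared. PCDHGB4 and PCDHGA8 also share exon sequence beyond the constant exons. Unshared bases were 2459 of 6902 in PCDHGB4 and 4214 of 8657 in PCDHGA8, against 2710 of 4887 in PCDHGB5. Reads in that shared stretch could be left out or counted for each gene. Whether PCDHGA8 moved separately from PCDHGB4 was not tested.

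Of the C-type PCDHG isoforms, PCDHGC3 and PCDHGC4 were also higher in HAR123-KO ECTO. PCDHGC3 was at 65.03, 55.9 and 61.3 CPM there, against 38.8, 45.4 and 41.9 in hHAR123, a log2 fold change of 0.58 (SE 0.0536, adjusted p = 1.94e-13) in edgeR's quasi-likelihood test. PCDHGC4 was at 19.98, 19.5 and 19.1 CPM, against 13.03, 15.3 and 13.02, a log2 fold change of 0.55 (SE 0.0756, adjusted p = 1.76e-08) in the same test. Neither overlapped hHAR123. PCDHGC3 also passed in the libraries labelled cHAR123 and mHAR123, with log2 fold changes of 0.19 and 0.25. PCDHGC5 was at 8.18, 8.65 and 7.44 CPM and overlapped hHAR123, and PCDHAC1 and PCDHAC2 did not pass in HAR123-KO. PCDHAC1 passed in mHAR123 ECTO, at 22.7, 24.6 and 22.5 CPM against 20.6, 17.9 and 19.05, a log2 fold change of 0.32 (SE 0.0683, adjusted p = 5.00e-04) in the same test. The genes lower in HAR123-KO ECTO were PCDHGB6, PCDHGA10, PCDHB10 and PCDHB16. PCDHGB6 was at 38.5, 36.5 and 37.8 CPM there, below every hHAR123 library.

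Among PCDHB genes in ECTO, PCDHB5 was again lowest in hHAR123, at 40.3, 42.2 and 43.98 CPM, against 62.9 to 68.9 in HAR123-KO, 68.3 to 72.6 in cHAR123 and 60.9 to 64.8 in mHAR123. PCDHB6 was likewise lowest in hHAR123, with 5.28, 4.96 and 5.42 CPM in hHAR123 and 7.97 to 8.32, 7.99 to 9.33 and 6.67 to 9.69 in the edited lines. Every edited library was above every hHAR123 library for both genes. The log2 fold changes of PCDHB5 over hHAR123 were 0.70 (SE 0.04803, adjusted p = 4.01e-18), 0.76 (SE 0.0461, adjusted p = 7.14e-17) and 0.62 (SE 0.0496, adjusted p = 1.14e-12) in HAR123-KO, cHAR123 and mHAR123, and those of PCDHB6 were 0.69 (SE 0.109, adjusted p = 4.73e-07), 0.76 (SE 0.108, adjusted p = 8.40e-07) and 0.66 (SE 0.122, adjusted p = 7.27e-05) (edgeR's quasi-likelihood test). The 3 comparisons share the hHAR123 libraries. In all, 5 members were higher and none lower in cHAR123 ECTO at any fold, beside 5.9% and 3.99% of all genes. In mHAR123 ECTO 8 were higher and 3 lower, beside 8.8% and 5.21%. Between mHAR123 and cHAR123 ECTO, 5 were higher and 6 lower, beside 2.64% and 1.56%.

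The ESC and ECTO comparisons use separate libraries of the same lines, so each member's genotype difference was read at both stages. Of the 10 members past the adjusted p threshold in HAR123-KO ESC, 9 had the same sign in ECTO and 5 also passed there with that sign. The numbers were 6 of 6 and 2 for cHAR123, 7 of 7 and 6 for mHAR123, and 7 of 7 and 5 for mHAR123 over cHAR123. Of all genes, 44.1%, 9.89%, 14.0% and 4.20% passed in ECTO in that order of comparisons. No share was taken over all genes that passed in ESC, so these counts cannot be read as a trait of the members. Across 51 members, Pearson's r between the log2 fold changes of both stages was 0.46 for HAR123-KO, 0.52 for cHAR123, 0.64 for mHAR123 and 0.64 for mHAR123 over cHAR123, and Spearman's rho 0.41, 0.50, 0.39 and 0.39. Over all genes tested at both stages r was 0.13, 0.32, 0.25 and 0.26. By cluster, in the same order, r was 0.64, 0.40, 0.85 and 0.94 over 14 PCDHA genes, where rho was 0.47, 0.42, 0.65 and 0.68. Over 15 PCDHB genes r was 0.56, 0.68, 0.80 and 0.60 and rho 0.20, 0.61, 0.60 and 0.26. Over 22 PCDHG genes r was 0.52, 0.44, 0.29 and 0.37 and rho 0.50, 0.47, 0.03 and 0.20. In mHAR123 the sign was shared by 7 of 15 PCDHB and 11 of 22 PCDHG genes, and over all members by 34, 38, 30 and 31 of 51. That is 66.7%, 74.5%, 58.8% and 60.8% of members, beside 46.1%, 53.4%, 51.9% and 50.2% of all genes. These correlations run across genes that share libraries and sequence, and they are descriptions without a test. The ECTO names of cHAR123 and mHAR123 enter them as the columns give them.

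**Figure D5:**
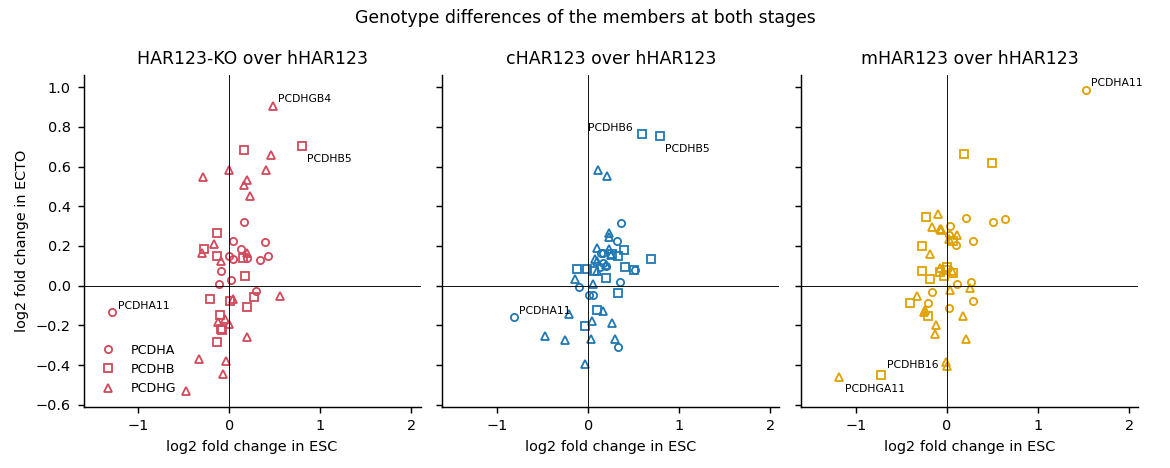
Log2 fold change of each edited genotype over hHAR123 in ESC (horizontal) and in ECTO (vertical) for the 51 members tested at both stages, with a symbol for each cluster. PCDHA11, PCDHGA11 and PCDHB16 in mHAR123 and PCDHB5 in all panels lie away from 0 with the same sign at both stages, while most members lie near 0 in ESC.

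The genotype by stage interaction tested whether a genotype difference changed between ESC and ECTO. Of the members, only PCDHA11 in HAR123-KO was called, with an interaction of 1.14 (SE 0.145, adjusted p = 3.84e-09) on the log2 scale (edgeR's quasi-likelihood test), beside 3.84% of all genes higher and 4.03% lower. No member was called for cHAR123, beside 0.24% and 0.557% of all genes, or mHAR123, beside 0.304% and 0.663%. With edgeR 11 and 20 members had an unadjusted p under 0.05, and DESeq2 also called none. For PCDHA11 the 4 genotypes, apart in ESC, came closer in ECTO, and the interaction was 0.66 (SE 0.136, adjusted p = 3.72e-04) in cHAR123 and −0.52 (SE 0.108, adjusted p = 2.95e-04) in mHAR123 (same test).

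Genes that act on or with the clustered protocadherins were read from lists set for this purpose. Of 18 cluster regulators, among them CTCF, cohesin subunits and DNA methyltransferases, none was called in a genotype comparison by edgeR or DESeq2, while at an unadjusted p under 0.05 edgeR gave 10, 15 and 18 in HAR123-KO, cHAR123 and mHAR123 ESC and 15, 12 and 14 in ECTO. In ESC 5, 10 and 10 passed the adjusted p threshold in HAR123-KO, cHAR123 and mHAR123, all lower, beside 5.29%, 8.6% and 10.2% of all genes lower. In ECTO 8 were higher and 6 lower in HAR123-KO, beside 24.2% and 19.9% of all genes. The counts were 2 and 3 in cHAR123, beside 5.9% and 3.99%, and 6 and 4 in mHAR123, beside 8.8% and 5.21%. From ESC to ECTO, 3 were down-regulated in hHAR123 and 2 in each of the edited genotypes, beside 19.1% to 21.2% of all genes. DNMT3B, a de novo DNA methyltransferase, was at 2499.7 to 2522 CPM in hHAR123 ESC and at 208 to 212 CPM in ECTO, a log2 fold change of −3.87 (SE 0.0285, adjusted p = 7.11e-49) in edgeR's quasi-likelihood test, and −3.87 to −3.58 over the 4 genotypes. TRIM28, a corepressor, fell, with log2 fold changes of −1.76 to −1.34. DNMT1, the maintenance methyltransferase, was called in hHAR123 only, with −1.07 (SE 0.0337, adjusted p = 1.63e-27) in the same test, and differences between genotypes in this fall were not called. CTCF was at 125 to 129 CPM in hHAR123 ESC and 90.3 to 98.4 CPM in ECTO and was called in no comparison.

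Of 15 genes for signalling partners and processing, such as the kinases PTK2 and PTK2B and the protease ADAM10, 1 was up-regulated and 3 down-regulated in hHAR123 ECTO, where 24.6% of all genes were called higher and 21.2% lower. RET, a receptor tyrosine kinase, fell, with a log2 fold change of −2.43 (SE 0.1002, adjusted p = 1.16e-23), and WASF1, an actin regulator of the WAVE complex, rose, with 1.15 (SE 0.0451, adjusted p = 2.11e-24) (edgeR's quasi-likelihood test). HAR123-KO had 1 up (FYN) and 1 down (RET), and cHAR123 and mHAR123 each 1 up (WASF1) and 1 down (RET). Over all genes, 21.3% to 22.0% were called higher and 19.1% to 20.8% lower in these genotypes. Within a stage, PRKCA, a protein kinase C, was the only one called in a genotype comparison. It was higher in HAR123-KO ECTO by 1.87 (SE 0.0555, adjusted p = 3.50e-33) in the same test, beside 4.92% of all genes. Of 11 non-clustered protocadherins, which lie outside the clusters, 9 were tested in HAR123-KO ECTO, where 4 were up-regulated and 2 down-regulated, beside 4.92% and 4.52% of all genes. PCDH10 was higher by a log2 fold change of 4.35 (SE 0.0671, adjusted p = 8.83e-46), and PCDH9 by 2.86 (SE 0.0735, adjusted p = 5.85e-36) (same test). PCDH19 and PCDH1 were lower, with log2 fold changes of −2.20 and −1.18. In ESC 1 of 10 was called in HAR123-KO, PCDH17, with 1.45 (SE 0.116, adjusted p = 3.11e-13), beside 0.96% of all genes higher. In ECTO 1 of 9 was called in cHAR123, PCDH8, with 1.15 (SE 0.0916, adjusted p = 2.72e-13), beside 0.522% of all genes higher. In mHAR123 1 of 9 was called, PCDH10, with 1.38 (SE 0.107, adjusted p = 4.46e-13), beside 0.603% (edgeR's quasi-likelihood test). From ESC to ECTO, 5 were up-regulated and 2 down-regulated in each genotype, beside 21.3% to 24.6% and 19.1% to 21.2% of all genes. PCDH12 was at 1.054 to 1.199 CPM in hHAR123 ESC and had 0 counts in hHAR123 ECTO. PCDH17 rose by 4.28 (SE 0.0752, adjusted p = 3.02e-36) in hHAR123 and PCDH9 by 4.80 (SE 0.0947, adjusted p = 3.52e-48) in HAR123-KO, where PCDH8 changed by 4.63 (SE 0.158, adjusted p = 1.83e-35) (same test). PCDH17 changed by 2.12 to 4.41 and PCDH8 by 3.26 to 4.63 over the 4 genotypes. The interaction for HAR123-KO was called for 5 higher and 4 lower, beside 3.84% and 4.03% of all genes. Among them were PCDH10, with 3.38 (SE 0.1103, adjusted p = 2.36e-30), and PCDH19, with −2.27 (SE 0.142, adjusted p = 5.26e-19) (same test). None was called in cHAR123 and mHAR123 by edgeR or DESeq2, where 8 and 7 had an unadjusted p under 0.05 with edgeR. The neural crest and neuroectoderm sums given above moved with the HAR123-KO ECTO values of these genes, and their part was not tested.

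Libraries of one group agreed closely for these genes. Where the group mean reached 1 CPM, the highest of 3 libraries was a median of 1.11 to 1.19 times the lowest over the 8 groups, and the widest ratio was 2.12, for PCDHGC5 in hHAR123 ESC. The median biological coefficient of variation in the edgeR fits was 0.04000 to 0.0523 over members and 0.0385 to 0.0454 over all genes tested. No library of a genotype stood apart in PCDHA11, PCDHGA11, PCDHB16 or PCDHB5, whose within-group ranges are given above.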

How the data were processed

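Bulk RNA was sequenced from 24 libraries, 3 for each of 4 genotypes at each of 2 stages. The authors aligned the reads to GRCh38 with STAR 2.5.2b and deposited raw exon counts per gene made with featureCounts. Whether that counting used strand, or counted reads over more than 1 gene, is not given in the sources used here. Totals ran from 21022748 to 35198684 counts per library, and 1 gene whose entry is broken over 3 lines was left out. Groups followed the labels. The clustered protocadherins and all gene lists were chosen with earlier results of these data known, and 2 listed genes are not reported here and were left out of the counts of their lists.

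Genes were tested with edgeR 4.0.16 in R 4.3.3 (filterByExpr, TMM, quasi-likelihood F test), each comparison on its own libraries, with Benjamini-Hochberg adjustment over all genes tested. To be called, a gene needed an adjusted p below 0.01 and a log2 fold change above 1 in size. An interaction is the fold change between genotypes in ECTO minus that in ESC. Levels between genes are CPM per kb of exon that no other annotated gene covers. The fit was tested on simulated data.

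Every PCDHB gene that passed the filter was named, as were the C-type isoforms, the PCDHA and PCDHG genes called between genotypes and the 3 largest called stage changes per cluster. Members outside this rule (PCDHA7, PCDHA10, PCDHA12, PCDHGB4 and its neighbours among them) were chosen after their values were seen. Alternatives were DESeq2 1.42.0, scaling by its size factors, leaving the low-count filter off, the replicate number as a block, each library left out in turn and, for cluster shares, total exon length. Libraries of one group differed by more than sampling noise, their chi-square divided by its degrees of freedom being 1.41 to 5.53 over 24 pairs. None was therefore taken as the same library sequenced again. This does not show that they came from separate cultures or clones.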

Additional observations from a re-analysis of the deposited data

Results flagged for a closer look

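The genotype by stage interaction passed an adjusted p of 0.01 for 9 members in 11 cases, each meaning that the difference from hHAR123 was not the same in ECTO as in ESC (edgeR's quasi-likelihood test, log2 scale). Members passed less often than all genes, at 11.5%, 3.92% and 5.88% of those tested in HAR123-KO, cHAR123 and mHAR123, beside 32.5%, 8.71% and 12.8%. For HAR123-KO these were PCDHA11 (1.143, adjusted p = 3.84e-09), PCDHGC4 (0.8307, adjusted p = 7.54e-06), PCDHGC3 (0.5813, adjusted p = 7.74e-07), PCDHGB7 (0.4632, adjusted p = 2.92e-06), PCDHGB4 (0.4215, adjusted p = 0.000662) and PCDHB3 (−0.3047, adjusted p = 0.00685). For cHAR123 they were PCDHA11 (0.6643, adjusted p = 0.000372) and PCDHA5 (−0.6313, adjusted p = 0.00255). For mHAR123 they were PCDHGA11 (0.7429, adjusted p = 6.52e-06), PCDHA11 (−0.517, adjusted p = 0.000295) and PCDHGB6 (0.3657, adjusted p = 0.00327). PCDHA11 lay nearer to hHAR123 in ECTO than in ESC in all 3 edited lines, and PCDHGA11 in mHAR123. In HAR123-KO, PCDHGB4 lay farther above hHAR123 in ECTO than in ESC, while PCDHGC3, PCDHGC4 and PCDHGB7 had log2 fold changes of −0.01, −0.29 and −0.30 relative to hHAR123 in ESC and of 0.58, 0.55 and 0.17 in ECTO. Neural crest marker sums were highest in HAR123-KO ECTO. The part of that marker difference in these values was not tested. In the cases of cHAR123 and mHAR123 the ECTO side follows the column labels, which the study's own table of changed genes contradicts.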

How the results depend on the processing

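No value changed sign under any alternative run. The number of clustered protocadherins called lower in ECTO than in ESC was 0 with DESeq2 in HAR123-KO (1 in the reported test, PCDHA1), 1 with no filter on low counts in hHAR123 and in cHAR123 (0 as reported), and 1 with the replicate number as a block in hHAR123. Same-numbered libraries did not deviate together (correlations of −0.110 to 0.124 over 36 pairs, and in no comparison were all pairs over 0.1), so the numbers were not taken as pairs, and the block moved no other count of calls by over 1.5 times. Leaving out 1 library gave 0 to 1 called lower in hHAR123 (1 without hHAR123 ECTO replicate 3) and in HAR123-KO (0 without HAR123-KO ECTO replicate 3), and 0 to 1 called higher in mHAR123 over hHAR123 ECTO (1, PCDHA11, without replicate 2 of either group). The numbers called higher from ESC to ECTO were then 21 to 23 in hHAR123, 24 to 26 in HAR123-KO, 17 to 19 in cHAR123 and 23 to 26 in mHAR123. With total exon length, the PCDHA, PCDHB and PCDHG shares in hHAR123 were 20.33%, 48.59% and 31.08% in ESC and 17.24%, 48.49% and 34.26% in ECTO. Of 239 cases of a member past the adjusted p threshold in a comparison, 41 missed it with DESeq2, 5 with size factors, 6 with no low-count filter, 6 with the block and 40 in at least 1 fit with a library left out. Depth limits the members at a few counts per library, PCDHA1 and PCDHB1 first.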
